A study of Mus musculus with 10 samples.

Results

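The Igkv genes are the variable segments of the immunoglobulin kappa light chain locus on mouse chromosome 6. The members were all genes whose symbol starts with Igkv in both RNA tables, and 100 of 26434 genes met this, in 19 families named by the first number of the symbol. RNA-seq had been made from 1 library of naive B cells and 1 library of plasma cells, which secrete antibody, both from wild-type C57BL/6 mice. The naive B cells were CD23+ IgD+ cells sorted from spleen, per the labels. The plasma cells are labelled in 2 ways that conflict: the source field names cells activated in vitro, while the extraction protocol names a bone marrow sort of CD138+ B220- IgD- cells that were also negative for CD4, CD8, Gr1 and Ter119. Neither reading was assumed. The number of mice behind each library is not given in the sources used here. Because each cell type had 1 library, no difference below has a replicate check, and the 95% intervals given account for counting error alone: without molecular identifiers, reads are not independent molecules.

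A kappa light chain is built when a B cell precursor joins 1 variable (V) segment to 1 joining (J) segment, after which the V-J exon is spliced to the constant segment Igkc. A mature B cell usually transcribes 1 productive kappa rearrangement, so the V transcripts of a cell pool are a picture of which V segments its cells had joined, weighted by the RNA that each cell makes. In bulk RNA, more cells using a segment and more RNA per cell using it cannot be told apart. Segments lie in an array in front of the J segments, some in the same orientation as Igkc, which recombine by deletion, and some in the opposite orientation, which recombine by inversion. The second number of a symbol counts V segments from the J side, so Igkv3-1 is near and Igkv2-137 far.

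Of the 100 members, 92 were matched by transcript and symbol to GENCODE M21 (GRCm38), which lists 90 of them as V genes, Igkv17-134 as a pseudogene and Igkv4-71 as protein coding. A further 6 carry transcript identifiers that M21 gives to another symbol, and 2 identifiers are absent from it. Each member had 1 transcript in the tables, with lengths of 123 to 374 bases and a median of 349. The segments are much alike: 33 of the 91 with a coding sequence had under 50% of their 31-base words to themselves among these members. Reads can be split between such close relatives, and values of near-identical members are less certain for that reason.

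The sequences that the main differences turn on are given here from GENCODE M21, 5′ to 3′ on the coding strand, with capitals marking the bases that differ within each pair. The first pair is Igkv5-39, whose share differed most between the libraries, and its relative Igkv5-43. Igkv5-39 lies at chr6:69900424-69900710 and Igkv5-43 at chr6:69823355-69823641, both on the minus strand of GRCm38. They differ at 25 of 287 positions, and the shown stretch of Igkv5-39 has the length of the transcript in the tables.
Igkv5-39: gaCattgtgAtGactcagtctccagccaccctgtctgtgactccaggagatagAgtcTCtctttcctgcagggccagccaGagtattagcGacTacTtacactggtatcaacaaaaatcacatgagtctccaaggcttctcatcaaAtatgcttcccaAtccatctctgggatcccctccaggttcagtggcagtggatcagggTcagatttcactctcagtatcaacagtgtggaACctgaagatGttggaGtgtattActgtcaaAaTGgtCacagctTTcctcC
Igkv5-43: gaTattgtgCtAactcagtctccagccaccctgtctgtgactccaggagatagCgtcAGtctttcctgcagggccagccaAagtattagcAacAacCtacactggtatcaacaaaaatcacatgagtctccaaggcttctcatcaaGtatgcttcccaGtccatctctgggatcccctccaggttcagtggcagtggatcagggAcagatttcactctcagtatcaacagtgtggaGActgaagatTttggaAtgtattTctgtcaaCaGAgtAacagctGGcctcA

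The second pair, Igkv1-117 and Igkv1-110, led the plasma repertoire. The last 300 bases of their V exons are shown, at chr6:68121528-68121827 and chr6:68270968-68271267 on the plus strand, and differ at 10 positions.
Igkv1-117: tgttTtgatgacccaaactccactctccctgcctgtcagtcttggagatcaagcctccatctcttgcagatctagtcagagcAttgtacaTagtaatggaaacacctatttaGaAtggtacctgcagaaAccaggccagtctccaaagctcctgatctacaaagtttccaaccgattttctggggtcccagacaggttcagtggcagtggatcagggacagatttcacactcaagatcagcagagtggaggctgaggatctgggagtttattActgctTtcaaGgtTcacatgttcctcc
Igkv1-110: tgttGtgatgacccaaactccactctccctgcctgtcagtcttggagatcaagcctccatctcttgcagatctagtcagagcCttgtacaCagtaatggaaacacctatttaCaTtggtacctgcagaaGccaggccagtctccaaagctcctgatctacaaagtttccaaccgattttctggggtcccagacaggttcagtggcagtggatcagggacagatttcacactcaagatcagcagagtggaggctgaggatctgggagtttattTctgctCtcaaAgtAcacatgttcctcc

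The third pair holds 2 close relatives in family 4, Igkv4-80 and Igkv4-70. Of Igkv TPM, Igkv4-80 held 0.855% in the naive library and 0.295% in the plasma library, and Igkv4-70 held 0.347 and 0.449%. The higher plasma share of Igkv4-70 rests largely on Igkv5-39. With Igkv5-39 left out of the total, Igkv4-70 held 0.436 and 0.461%, a log2 ratio of 0.08. No interval was computed on that basis, so opposite directions are not shown for this pair. Igkv4-70 had only 17.9% of its 31-base words to itself, so its values are less certain. Igkv4-80 lies at chr6:69016558-69016856 and Igkv4-70 at chr6:69267888-69268186, both on the minus strand. They differ at 26 of 299 positions.
Igkv4-80: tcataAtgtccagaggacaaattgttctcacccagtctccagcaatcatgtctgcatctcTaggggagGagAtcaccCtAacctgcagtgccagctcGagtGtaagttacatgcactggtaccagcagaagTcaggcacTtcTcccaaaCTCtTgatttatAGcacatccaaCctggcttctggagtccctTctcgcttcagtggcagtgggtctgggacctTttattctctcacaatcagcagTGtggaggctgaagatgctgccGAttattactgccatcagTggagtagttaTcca
Igkv4-70: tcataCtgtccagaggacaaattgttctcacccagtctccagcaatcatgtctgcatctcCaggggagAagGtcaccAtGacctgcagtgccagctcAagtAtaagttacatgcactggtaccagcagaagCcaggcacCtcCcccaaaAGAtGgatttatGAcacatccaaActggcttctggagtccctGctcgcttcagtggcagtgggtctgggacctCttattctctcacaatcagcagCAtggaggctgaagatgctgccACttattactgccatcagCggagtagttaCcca

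The naive library held 36995177 estimated counts and the plasma library 43457786, of which 97031 and 1293100 were on Igkv genes. Levels between genes are compared in TPM, which counts transcripts relative to the library after correction for length. All 5 matched naive B markers were at least 2-fold lower in the plasma library and 3 of 4 matched plasma markers at least 2-fold higher, while Sdc1, the gene of CD138, on which the protocol says the cells were sorted, had 11.1 TPM in the naive library and 5.38 TPM in the plasma library. The libraries also differed in other cells and in sex-linked RNA. Summed T cell markers were at 32.4 and 0.602 TPM, with Cd3e and Trbc2 listed at 0 in plasma cells, and summed myeloid markers at 121 and 0.787 TPM. Eif2s3y, which is Y-linked, was at 104 and 0 TPM, and Xist, made from the inactive X chromosome, at 0.383 and 128 TPM. The part of these differences in the V gene shares was not tested.

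Igkv transcripts made up 1.62% of all TPM in the naive library and 10.98% in the plasma library, 6.80-fold more. The folds in this paragraph are of TPM without centring, and their size depends on the scaling. For the Igkv total the log2 ratio was 2.76 on this basis and 3.75 after the centring described below. As a share of estimated counts they were 0.262% (exact binomial interval 0.261 to 0.264%) and 2.98% (2.97 to 2.98%), where length is not corrected for. The constant segment Igkc stood at almost the same level as the sum of its V segments: there were 0.972 TPM of Igkv per TPM of Igkc in the naive library and 1.00 in the plasma library. Heavy chain V genes (37 Ighv genes in these tables) were 6.81-fold higher in plasma cells by summed TPM, and the 3 lambda V genes 6.05-fold. Kappa V transcripts were 89.3% of kappa and lambda V transcripts together in the naive library and 90.4% in the plasma library. The kappa, heavy and lambda V totals thus differed between the libraries by similar factors. The lambda constant genes did not follow their V genes: the 2 Iglc genes summed to 3545 TPM in the naive library and 5489 TPM in the plasma library, 1.55-fold more, against 6.58-fold for Igkc.

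Nearly every Igkv gene tested was higher in plasma cells, and among those tested the exception was the most abundant one of the naive library. After adding 1 TPM to each value, the log2 ratio of the plasma to the naive level was centred by subtracting its median, -0.99, over the genes that reached 5 TPM in each library. A minimum of 5 TPM in either library left 94 members, of which 93 were 2-fold or more higher and 0 lower. Over all genes tested, 16% were higher by that rule and 22% lower. The minimum admits members that reached 5 TPM in the plasma library alone, such as Igkv4-62 (3.55 and 59.3 TPM). It leaves out Igkv1-115 (4.40 and 1.64 TPM) and Igkv12-47 (4.07 and 0.629 TPM), whose TPM was lower in plasma cells. With no minimum, 96 of 100 members were 2-fold or more higher and 0 lower. Subtracting the median of -0.99 raises every log2 ratio, so these include members near 0 TPM, such as Igkv1-131 (0.372 and 1.04 TPM). The 94 members tested had a median centred log2 ratio of 3.88, against -0.23 for all genes tested. Members at or above 100 TPM numbered 45 in the naive library and 76 in the plasma library, and those at or above 1000 TPM numbered 3 and 36. Without centring 92 of the 94 members were higher, Igkv4-73 and Igkv5-39 being the others, and 0 lower. The share of all genes called without the minimum or without centring was not counted, so these counts have no background.

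Igkv5-39 was the member above the 5 TPM minimum that was not 2-fold higher. Its level was 3298 TPM in the naive library and 2984 TPM in the plasma library, and the centred log2 ratio was 0.84. Without centring its log2 ratio was -0.14, and with TMM factors applied to CPM it was 1.24, past the 2-fold line, so its direction depends on the scaling. Its share of Igkv TPM does not: Igkv5-39 held 20.4% in naive B cells, where it ranked first, and 2.72% in plasma cells, where it ranked eighth. The share was 7.51-fold lower in plasma cells, a log2 ratio of -2.91 (interval -2.94 to -2.88). Intervals of ratios were computed on counts and shifted to the TPM ratio, and on counts alone the ratio of Igkv5-39 was -2.96. Its counts were 16471 of the naive and 28138.5 of the plasma Igkv counts. Igkv5-39 had 80.5% of its 31-base words to itself, and its closest relative among the members, Igkv5-45, differed at 23 of 280 aligned bases.

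**Figure D1:**
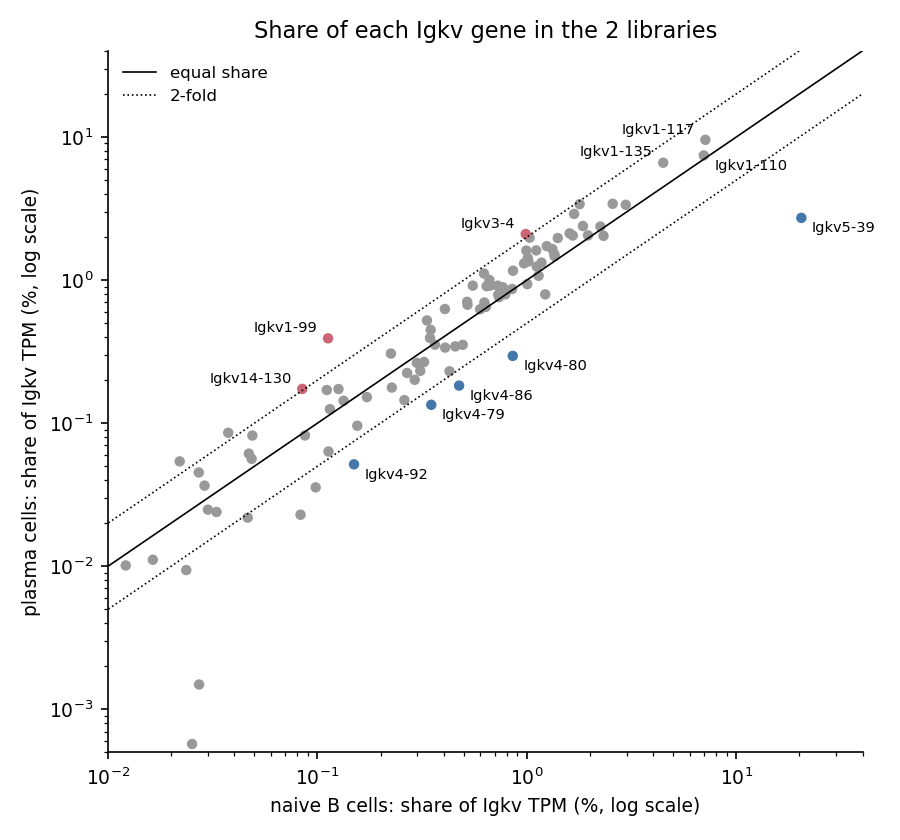
Share of Igkv TPM of each gene in naive B cells (x axis, %) and plasma cells (y axis, %), both on log scales, for the 96 genes with more than 3 estimated counts in both libraries; the solid line marks equal shares, the dotted lines 2-fold, and coloured points are genes past 2-fold with at least 0.1% in 1 library. Most genes lie between the dotted lines, and Igkv5-39 lies far below them at 20.4% and 2.72%.

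Apart from Igkv5-39, the leading segments were largely common to both libraries. The 10 highest genes of each library shared 8 members, 80% of each list. Igkv1-117 ranked second in naive B cells and first in plasma cells. Its levels were 1148 and 10481 TPM, or 7.11% and 9.55% of Igkv TPM. Igkv1-110 was at 1128 and 8155 TPM, or 6.98% and 7.43%. In naive B cells the count shares of this pair had intervals that overlapped, 7.53 to 7.87% for Igkv1-117 and 7.40 to 7.73% for Igkv1-110. In plasma cells they did not overlap, at 9.91 to 10.01% and 7.70 to 7.79%. Igkv1-135 came next, with 4.47% in the naive library and 6.60% in the plasma library.

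The other genes ranked among the 10 highest of either library held between 1 and 4% each. Igkv17-127 had 2.96% in the naive library and 3.35% in the plasma library. Igkv5-43, the relative of Igkv5-39 printed above, had 2.57 and 3.41%, a difference in the other direction. Without Igkv5-39 in the total it held 3.22 and 3.50%, a log2 ratio of 0.12. Igkv5-43 differs at only 3 of 280 aligned bases from Igkv5-45, whose share was lower in plasma cells (0.323 and 0.267%). The split of reads between these is uncertain. Igkv14-111 had 2.24 and 2.36%, Igkv17-121 1.85 and 2.38%, and Igkv9-120 1.96 and 2.05%. Igkv19-93 had 2.32 and 2.04%. M21 gives the transcript identifier of Igkv19-93 to the pseudogene Igkv11-106, so what it measures is less sure. Igkv6-15 (1.78 and 3.39%) and Igkv12-44 (1.68 and 2.90%) were among the 10 highest in plasma cells alone.

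Shares of the remaining genes followed each other closely. Across the 96 genes with more than 3 estimated counts in both libraries, log2 shares had a Pearson correlation of 0.92 and a Spearman correlation of 0.96. These are across genes, which share the library, the counting and the sum to 100% and are not replicates. For 33 Ighv genes, the same measures gave 0.95 and 0.97. Of the 96 genes, 80 had shares within 2-fold. In all, 21.1 percentage points of the repertoire changed hands, and the loss of Igkv5-39, 17.7 points, was 84.0% of the total loss. With Igkv5-39 left out of both libraries, 10.1 points changed hands. For the Ighv genes the value was 10.6 points with no gene left out, so it is to be set beside the 21.1 points of all Igkv genes.

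Since shares sum to 100%, the smaller share of Igkv5-39 raises every other share. With all genes, 61 of the 96 had a higher share in plasma cells and 35 a lower one, with a median log2 ratio of 0.15. Without Igkv5-39, 41 of 95 were higher and 54 lower, with a median of -0.13. The direction of a share that differed by little between the libraries therefore rests on this gene.

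Few genes differed by 2-fold or more in share. Of 78 genes with at least 0.1% of Igkv TPM in 1 library and more than 3 counts in both, 3 had a share at least 2-fold higher in plasma cells and 5 a share at least 2-fold lower. By the same rule, 0% of 31 Ighv genes were higher and 16.1% lower, as shares of all Ighv. The 3 higher genes were Igkv3-4, Igkv1-99 and Igkv14-130. Igkv3-4 went from 0.987 to 2.10% of Igkv TPM (159 and 2302 TPM), a log2 ratio of 1.09 with an interval of 1.00 to 1.18 whose lower end is at the 2-fold line (0.998). Igkv1-99 went from 0.112 to 0.391% (18.1 and 430 TPM), a log2 ratio of 1.80 with an interval of 1.54 to 2.08. M21 places the transcript identifier of another member, Igkv1-115, on the Igkv1-99 gene as well, so reads may be split between these entries. Igkv14-130 went from 0.0846 to 0.174%, a log2 ratio of 1.04 with an interval of 0.73 to 1.37 that also reaches below 2-fold. With Igkv5-39 left out the ratios of Igkv3-4 and Igkv14-130 were 0.80 and 0.75, and Igkv1-99, at 1.51, was the only gene still called higher.

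Besides Igkv5-39, the 4 genes called lower were of family 4 when all members were in the total. Igkv4-80 held 0.855% of Igkv TPM in the naive library and 0.295% in the plasma library, a log2 ratio of -1.54 (interval -1.64 to -1.43). The log2 ratio was -1.38 for Igkv4-79, -1.37 for Igkv4-86 and -1.54 for Igkv4-92. In TPM these genes were still higher in plasma cells, as in Igkv4-80, which was at 138 and 324 TPM. Without Igkv5-39 their log2 ratios were -1.83 for Igkv4-80, -1.67 for Igkv4-79, -1.66 for Igkv4-86 and -1.83 for Igkv4-92, and 9 genes were called lower in share. The others were Igkv4-73 (-2.15), Igkv4-81 (-1.75) and Igkv4-90 (-1.12) and, from other families, Igkv1-88 (-1.18) and Igkv10-95 (-1.13).

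Among genes with at least 0.5% of Igkv TPM in 1 library, 51 in all, the gains were smaller than the loss of Igkv5-39. In percentage points the largest gains with all members in the total were those of Igkv1-117 (2.44) and Igkv1-135 (2.13). Without Igkv5-39 in the total both gains were smaller, with Igkv1-117 at 8.93 and 9.81% and Igkv1-135 at 5.62 and 6.79%. The largest gain in points was then that of Igkv6-15, at 2.24 and 3.48%. By ratio with all members, after Igkv3-4, the gains were led by Igkv8-30 (1.03 to 1.98%, log2 ratio 0.94), Igkv6-15 (0.93), Igkv3-10 (0.623 to 1.11%, 0.83) and Igkv12-44 (0.79). The losses by ratio after Igkv5-39 and Igkv4-80 were Igkv2-109 (1.22 to 0.794%, -0.62), Igkv19-93 (-0.19) and Igkv15-103 (1.00 to 0.936%, -0.10). With all members in the total, these 5 were the members of this abundance whose whole counting interval lay below equal shares, and Igkv5-39 and Igkv4-80 were past 2-fold. That count rests on Igkv5-39. Without it in the total, other members also had a lower share in plasma cells, such as Igkv1-110 (8.78 and 7.63%, log2 ratio -0.20). Intervals on that basis were not computed.

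By family, the largest naive share was that of family 5 and the largest plasma share that of family 1. Family 5, with 5 genes, held 24.4% of Igkv TPM in the naive library and 7.80% in the plasma library, a log2 ratio of -1.64 with an interval of -1.67 to -1.62. Igkv5-39 was 83.8% of the family in naive B cells, while Igkv5-43 led it in plasma cells with 43.7%. The difference in family 5 was that of 1 gene: without Igkv5-39 the family held 4.97% in the naive library and 5.22% in the plasma library, a log2 ratio of 0.07.

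Family 1, with 11 genes, held 19.8 and 24.8% (log2 ratio 0.33), and without Igkv5-39 24.9 and 25.5%. Families 3, 6 and 8 had higher shares in plasma cells with or without that gene. Family 3 held 4.03 and 6.33% (log2 ratio 0.65, interval 0.61 to 0.70), and 5.06 and 6.51% without Igkv5-39. Family 6 held 7.94 and 11.1%, and family 8 6.91 and 9.74%, with log2 ratios of 0.48 and 0.50 that became 0.19 and 0.21. Of the 26 genes of these 3 families 20 had a higher share in plasma cells, and 17 did without Igkv5-39.

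The direction of family 4, the largest with 26 genes, rests on Igkv5-39. It held 10.5 and 10.7%, a log2 ratio of 0.02, and without Igkv5-39 13.2 and 10.9%, a log2 ratio of -0.27, larger in size than those of families 6 and 8 on that basis. The top genes of family 4 were Igkv4-53 in naive B cells (10.6% of the family) and Igkv4-59 in plasma cells (13.4%). Igkv4-59 had only 13.7% of its 31-base words to itself, the lowest value among the members. Family 12 held 4.70 and 5.95%, family 17 4.82 and 5.74%, family 14 3.64 and 4.34%, and family 9 3.13 and 3.17%. Without Igkv5-39 the log2 ratios of these families were 0.05, -0.04, -0.04 and -0.27. Family 2 held 2.78 and 3.11%, with Igkv2-109 in front in naive B cells and Igkv2-137 in plasma cells. Of the 7 families with 1 gene, Igkv19-93, Igkv16-104 (1.32 and 1.65%), Igkv13-84 (1.17 and 1.32%) and Igkv15-103 were over 0.5%. The other 3, Igkv11-125, Igkv7-33 and Igkv18-36, held at most 0.125%. In all, 13 of 19 families had a higher share in plasma cells, and 7 of 19 without Igkv5-39.

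**Figure D2:**
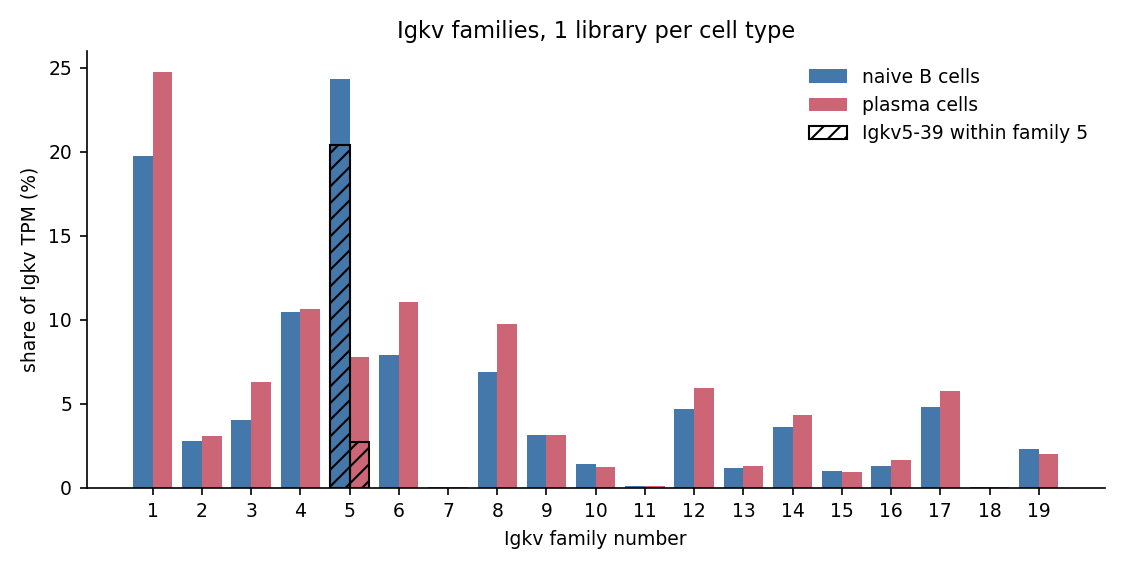
Share of Igkv TPM (y axis, %) by Igkv family (x axis) in the naive B and plasma libraries, 1 library each and no error bars; hatching marks Igkv5-39. Family 5 is at 24.4% and 7.80%, and most of its naive bar is Igkv5-39, while families 1, 3, 6 and 8 are higher in plasma cells.

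Within family 4, the share ratios differed along the array when ordered by the position number in the symbol. Of the 8 family 4 genes numbered 78 or higher, 6 had a lower share in plasma cells, with a median log2 ratio of -1.38, and together they held 2.66% in the naive library and 1.43% in the plasma library. Of the 18 numbered 74 or lower, 13 had a higher share, with a median of 0.17 and sums of 7.83 and 9.22%. Without Igkv5-39 these medians were -1.67 and -0.11, with 7 of the 8 and 10 of the 18 genes lower, so genes with a lower share were then found in both groups. The 2 higher genes of the first group were Igkv4-78 (0.74) and Igkv4-91 (0.06). The 5 lower genes of the second were Igkv4-73 (-1.86), Igkv4-56 (-1.33), Igkv4-61 (-0.27), Igkv4-58 (-0.26) and Igkv4-50 (-0.18). M21 gives the transcript identifier of Igkv4-73 to Igkv4-51, so its place is not sure, and that of Igkv4-56 is absent from M21. Across all families, the 10 genes numbered 79 to 92 had a median of -1.13, and 8 of them were lower. These are largely the same genes: all but Igkv13-84 (0.17), Igkv12-89 (-0.40) and Igkv1-88 (-0.89) are family 4 genes already counted above. These stretches were chosen after the values were seen and were not tested.

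At the J end of the array, the 25 genes numbered 1 to 30 held 17.6% in the naive library and 25.4% in the plasma library, and 22.1 and 26.1% without Igkv5-39. Here 19 of the 25 had a higher share in plasma cells, against 61 of the 96 genes of all families. The median log2 ratio of the 25 was 0.41, and 0.12 without Igkv5-39. All 25 belong to families 3, 6 and 8, which hold 26 genes in all. The values of this stretch therefore largely repeat those of the 3 families, and position and family cannot be told apart here. The far stretch, numbered 101 and up, held 35.3 and 42.3%, and 44.3 and 43.5% without Igkv5-39, so its higher plasma share rests on that gene. The middle stretch, 51 to 100, held 17.2% in both, and 21.6 and 17.7% without it.

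**Figure D3:**
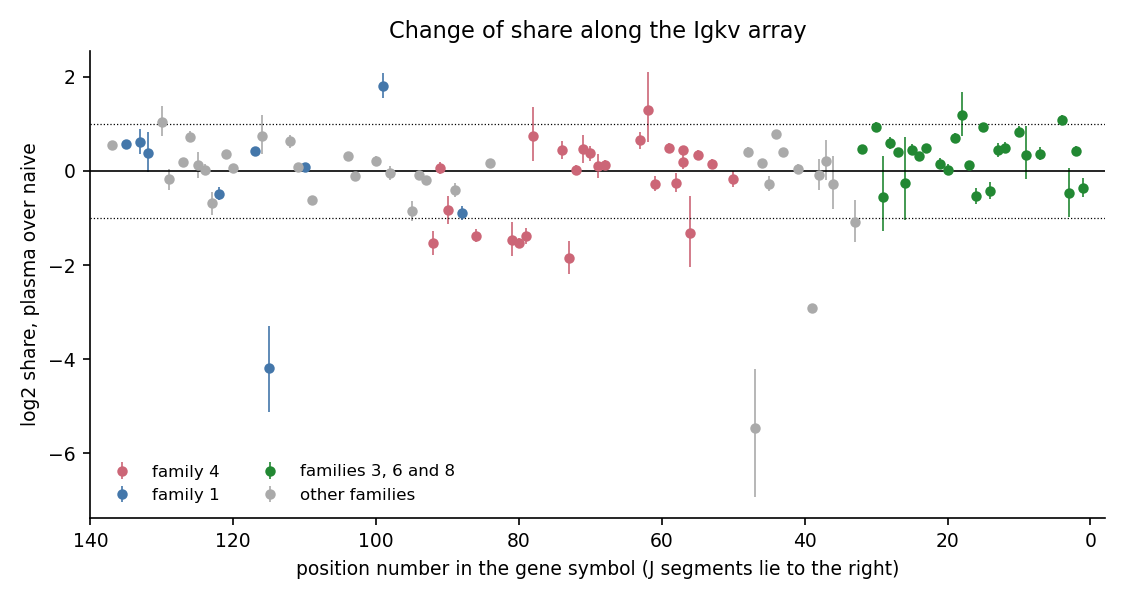
Log2 ratio of the share in plasma over naive B cells (y axis) against the position number in the gene symbol (x axis, J segments to the right) for 96 genes; bars are exact 95% intervals of counting error. Family 4 genes numbered 79 to 92 lie mostly below -1, and Igkv5-39 is at -2.91; the points below it, Igkv1-115 and Igkv12-47, rest on under 30 counts in each library.

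Shares by orientation were close in the libraries once Igkv5-39 was left out. Among matched members, the 36 genes in the same orientation as Igkc held 44.1% in the naive library and 54.4% in the plasma library. Without Igkv5-39, which lies in the opposite orientation, they held 55.8 and 56.0%. The 55 remaining genes in the opposite orientation held 44.2 and 44.0%.

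The naive repertoire was more concentrated than that of plasma cells, again through 1 gene. In naive B cells 9 genes held 50% of Igkv TPM, and in plasma cells 13 did. It took 47 and 46 genes to reach 90%. The effective number of genes, the number of equally used genes that would give the same diversity, was 37.7 in the naive library and 47.7 in the plasma library by the Shannon entropy, and 16.3 and 31.03 by the Simpson index, which weighs abundant genes more. Without Igkv5-39 the order turned: the Shannon numbers were 50.6 and 46.8 and the Simpson numbers 32.1 and 30.1. For Ighv genes the Shannon numbers were 19.0 and 17.3 and the Simpson numbers 13.3 and 12.3.

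**Figure D4:**
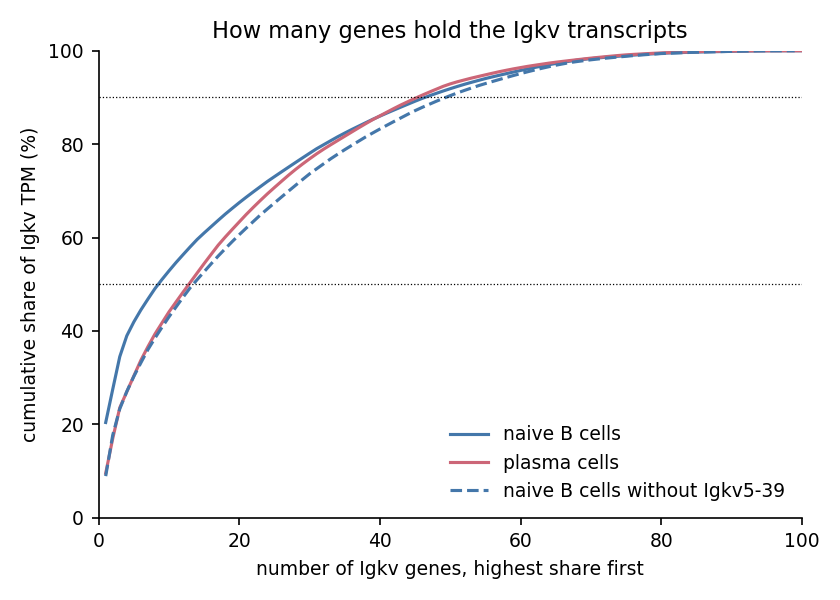
Cumulative share of Igkv TPM (y axis, %) against the number of genes from the highest share down (x axis) in both libraries and in naive B cells without Igkv5-39; dotted lines mark 50 and 90%. The naive curve starts at 20.4% and reaches 50% with 9 genes against 13 in plasma cells, and without Igkv5-39 it runs close to the plasma curve at its start.

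The tail of the repertoire was thin. In naive B cells 96 members had more than 3 estimated counts and in plasma cells 99 did. Igkv10-96, whose transcript is 123 bases long, was listed at 0 in both. M21 gives the transcript identifier of this entry to the pseudogene Igkv2-95-2. Whether the Igkv10-96 segment itself was used is therefore not known from this entry. A count of 3 is a share of 0.00309% of Igkv counts in the naive library and 0.000232% in the plasma library, which limits what could be seen. The lowest ratios in the tail, singled out after the values were seen, were those of Igkv12-47, with 24 counts in the naive library and 7 in the plasma library (log2 ratio of shares -5.46, interval -6.92 to -4.20), and Igkv1-115, with 27.0 and 19.0 counts (-4.19). M21 gives the transcript identifiers of both to other symbols, Igkv13-85 and Igkv1-99.

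Genes known to act on kappa transcription and recombination were measured in the same libraries. Of 22 matched factors that bind kappa promoters or enhancers or restrain such factors, 2 (9.09%) had a centred ratio past 2-fold up in the plasma library, against 16% of all genes, and 7 (31.8%) past 2-fold down, against 22%, with a median centred log2 ratio of -0.80, against -0.23 for all genes tested. The higher ones were Pou2af1, the coactivator of octamer-binding factors (426 and 1035 TPM), and Irf4, which binds the kappa 3′ enhancer with an ETS partner (96.6 and 221 TPM). The ETS partner Spib was lower (639 and 8.00 TPM), as were Pax5 (346 and 15.7 TPM), Ebf1, Rel, Id3, Mef2c and Mef2d. Without centring Pou2af1 and Irf4 were still more abundant in plasma cells. The octamer-binding factor Pou2f2 was at 134 and 65.4 TPM, a centred log2 ratio of -0.03. The recombinase genes Rag1 and Rag2 were at 0.189 and 0.184 TPM in naive B cells and at 0.0192 and 0.0150 TPM in plasma cells, below the 5 TPM minimum in both.

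Accessible chromatin was measured by ATAC-seq in 1 library of splenic CD23+ IgD+ naive B cells and 1 of B220- plasma cells from bone marrow, per the labels. Peaks were counted in 500 kb windows between 67500001 and 71000000 on chromosome 6 (mm9), an approximate position of the kappa locus. No annotation of that build was used here, so peaks were not placed at single V genes, and the GRCm38 positions above do not apply to them. The windows held 89 naive peaks and 44 plasma peaks, while the whole lists held 29868 and 30475. Of the 89 naive peaks, 32 shared 1 base or more with a plasma peak. Overlaps were not counted over the whole lists, so overlap counts here and below have no background and cannot be called low or high.

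The windows differed among themselves. The window from 69500001 to 70000000 held 18 naive peaks and 0 plasma peaks, and the one from 69000001 to 69500000 held 19 and 4. In the last window, 70500001 to 71000000, the lists held 18 and 17 peaks, of which 13 in each list overlapped one of the other, and 32.3 and 42.8 kb were covered. The authors' peak score had a median of 86.4 for the 18 naive peaks of the first of these windows and 226 for the naive peaks of the last, against 211 over the whole naive list, where the lowest score is 50.01. With peaks of a score of at least 100 only, the region held 48 naive and 33 plasma peaks, a smaller contrast than 89 and 44. The depth of these libraries is not known from the lists, and whether sites without a plasma peak were closed was not tested.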

How the data were processed

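Naive B and plasma cells had 1 RNA-seq and 1 ATAC-seq library each, grouped by title. The other samples of the series were not used here. Per the file headers, the authors deposited kallisto's estimated count and TPM of every transcript. Their effective length is 49 bases under the transcript length for 60997 of 61112 transcripts in both, so gene ratios are the same in counts and TPM up to 1 factor. The score in the deposited peak lists is the authors' and served here to describe peaks only. Kallisto, Bowtie, TopHat, HOMER, Picard and MACS 1.4, and build mm9, are named per the submitters' processing notes. Their other versions, and whether samples were pooled, were not stated.

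TPM and counts were summed per gene and divided by the Igkv sum. Intervals are Clopper-Pearson for shares and exact conditional intervals for ratios, shifted to the TPM ratio, on rounded estimated counts (Python 3.11.15, scipy 1.17.1). TMM factors came from edgeR 4.0.16. No test was possible on 1 library a group, so called means past 2-fold. Named genes were the 10 highest in each library, the 5 largest gains and losses by share ratio at 0.5% or more, top genes of families, and genes called in share. The members, lists and alternatives were chosen with earlier results of these data known. On simulated data the share calls recovered 20 of 20 changed Igkv genes and the TPM calls 200 of 200 among 26434 genes, with 3 false calls. The planted changes had a log2 size of 2, well past the 2-fold line, with counting noise alone. Recovery therefore checks the code only. Smaller changes, reads split between close relatives and variation between libraries were not simulated. The planned promoter motif search was not run, because the RefSeq promoter table used here held no entry for an Igkv gene.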

Additional observations from a re-analysis of the deposited data

How the results depend on the processing

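Counts of genes, families or peaks and effective numbers are treated as unmoved within 1.5 times, and log2 ratios and shares only within the counting interval, which is narrow at this depth. By these rules 48 of 68 alternative values of the main results were unmoved, and 29 of 71 log2 ratios of the families other than family 5. With Igkv5-39 alone left out (chosen after seeing the data), or the most abundant gene of each library, the log2 ratio of family 5 turned from -1.64 to 0.072 and 0.086, the families with a higher plasma share numbered 7 and 6 instead of 13, the naive genes holding 50% went from 9 to 14 and 16, and the naive Simpson number from 16.3 to 32.1 and 35.7. Genes at least 2-fold higher in share then numbered 1 in either case and those lower 9. With a minimum share of 0.5% they numbered 1 and 2, and with no minimum 5 and 11. On estimated counts family 5 was at -1.54, and Igkv took 0.262% and 2.98% of the library. The cause of the other changes was not tested. With a peak score of at least 100 the Igk region held 48 naive peaks instead of 89 and 33 plasma peaks instead of 44. The number of members higher in TPM stayed between 91 and 96 under 6 settings, with 0 lower in each. The share of all genes called under these settings was not counted. Over the genes that reached 5 TPM in each library, TMM factors on CPM put the median log2 ratio at 0.13, no centring left it at -0.99, and leaving immunoglobulin genes out of the total at -0.55. The alternative without pseudogenes could not be run as planned, since the tables give no gene type, and one restricted to members matched to a V gene in GENCODE M21 took its place. No paired analysis was possible because each cell type had 1 library. No replicate could be left out.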
